A study of Mus musculus with 8 samples.

Results

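The steady-state transcriptome of BaF3 cells carrying Jak2 V617F and a non-targeting short hairpin (shNT) was described from 4 libraries of the 8 in the series, all those whose labels give the shNT control. BaF3 is an established mouse line that the labels call pro-B derived, and it normally needs interleukin-3 to grow. Jak2 is the tyrosine kinase bound to the receptors for interleukin-3 and erythropoietin, among others, and the V617F change makes it active without ligand. The study used these libraries as the controls of a knockdown of Ybx1, which is not examined here. The cells were grown in RPMI1640 with serum and sodium pyruvate, a medium for which the labels name no cytokine. Polyadenylated RNA was sequenced. The labels do not say whether the 4 replicates were separate cultures, whether the cells were 1 clone, or how the mutant Jak2 was introduced. They also do not say whether Epor, the erythropoietin receptor gene, was introduced. Sequence from an introduced gene and from the cells' own copy cannot be told apart in these tables. As only 1 group is described, no comparison between groups was made, and the spread given is that between these 4 libraries, which may be technical.

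Cytokine receptors of this family have no kinase of their own. A ligand brings receptor chains together, the bound JAK kinases phosphorylate STAT proteins, and STAT5 then enters the nucleus and activates genes such as Cish, Socs1, Pim1 and Bcl2l1. The RAS and ERK cascade is started from the same receptors. In blood formation Gata2 and Runx1 act in progenitors, Gata1 and Nfe2 in red cells and megakaryocytes, and Klf1 in red cells. Spi1 and the C/EBP factors act in myeloid cells, and Ebf1 and Pax5 in B cells.

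Total counts were 30145813, 36035387, 37549926 and 26093847 in replicates 1 to 4, over the 13588 genes of the count table. The TPM table (a level per transcript length, scaled to the same total in each library) covers 53465 genes. Of these, 12415 (23.2%) had a mean of 1 TPM or more, and 10354 of the 12415 were protein coding, which is 47.2% of the 21942 protein coding genes in the table. The counts of detected members of the gene lists below, most of them protein coding, can be read against that 47.2%. At 10, 100 and 1000 TPM the numbers were 8102, 1354 and 167 genes. By library, 12227, 12081, 11987 and 11822 genes reached 1 TPM. The median level of the 12415 detected genes was 18.3 TPM. Zeros need care for low genes: among genes with 20 to 50 counts in a library, 28.0 to 43.3% were listed at 0 TPM in it. Genes well above that range were rarely affected, as 2 of 6164 protein coding genes with a mean of 1000 counts or more were listed at 0 TPM throughout. Replicate 4 stood apart from the other 3 libraries, as described with the variation, where the measures of spread are also given without it.

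The markers of B cells were mostly at 0, against the pro-B description in the labels. Of 28 pro-B and B lymphoid markers, 5 had a mean of 1 TPM or more and 19 were listed at 0 TPM in all 4 libraries. The list's summed level was 140, 115, 137 and 108 TPM in replicates 1 to 4, with a median member at 0 TPM. The genes at 0 include those that define the stage. Among them are Ebf1 and Pax5, the factors that commit cells to the B lineage, the surrogate light chain genes Vpreb1 and Igll1, the recombination genes Rag1, Rag2 and Dntt, the receptor gene Il7r, and Cd22, Blnk, Ms4a1, Ighm and Igkc. None of these is in the count table either.

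The 5 lymphoid markers that were detected encode the B cell receptor signalling chains and more widely used proteins. Cd79a, which encodes the alpha signalling chain of the B cell receptor, was at 24.9, 18.4, 22.9 and 7.43 TPM in replicates 1 to 4. Cd79b, the partner chain, was at 15.7, 12, 15.6 and 18.4 TPM. Reads for both were plentiful, with 422 to 896 counts for Cd79a and 292 to 591 counts for Cd79b. Tcf3, the E2A factor, was at 43.2, 43.4, 51.1 and 21.2 TPM. Ptprc, the CD45 antigen of all white cells, ran from 31.5 to 48.1 TPM, and Ikzf1, the Ikaros factor of lymphoid and progenitor cells, from 8.66 to 15.7 TPM. Replicate 4 had the lowest Cd79a and Tcf3 and the highest Ptprc and Cd79b.

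By mean level, erythroid and megakaryocyte genes were the most completely represented lineage lists. Of 15 erythroid markers measured (17 listed), 12 had a mean of 1 TPM or more, and of 15 megakaryocyte and platelet markers 9 did. Among all protein coding genes 47.2% did, and of 20 stem and progenitor markers 11 did, so the megakaryocyte list stood only a little above these. Some erythroid means leaned on replicate 4. Hba-a1 was at 0, 0, 0 and 60.9 TPM in replicates 1 to 4, and Hbb-bt at 0, 2.59, 0 and 26.1 TPM. Hba-a2 was at 0 TPM in replicate 2 and Rhag at 0.9 TPM in replicate 3. The 9 detected megakaryocyte markers each had at least 4.63 TPM in every library. Epor (chromosome 9, 21958897 to 21963506, minus strand, GRCm38), which encodes the erythropoietin receptor, was at 2191, 1916, 2274 and 1194 TPM. That mean of 1894 ± 491 TPM (SD, n = 4) ranked 109 among all genes, and 98.8 to 99.4% of it came from 1 transcript, Epor-201. Epor made up most of the erythroid list's summed 2686, 2293, 2669 and 1809 TPM, and the sum, like Epor, was lowest in replicate 4. Most members went the other way. Of the 12 detected members, 9 were highest in replicate 4 and 2 were lowest in it, Epor among them. The shares for all detected genes were 24.7% highest and 43.9% lowest in replicate 4. The labels do not say whether Epor was an introduced gene, so how much of its level came from the cells' own copy is not known.

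The erythroid factors were present while most products of mature red cells were low. Gata1 was at 91.1, 67.7, 85.1 and 142 TPM, highest in replicate 4. Its cofactor Zfpm1 was at 195, 140, 232 and 422 TPM, and Nfe2 at 184, 133, 190 and 227 TPM. Klf1, the activator of adult globin genes, was at 38.5, 11.2, 11.2 and 30.9 TPM, high in replicates 1 and 4 and low in replicates 2 and 3. Tfrc, the transferrin receptor that brings iron into the cell, was lowest in replicate 4, at 44.0 TPM against 75.8 to 149 TPM in the others.

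Globin transcripts were few. Hba-a1, an alpha globin gene, had 25, 6, 6 and 249 counts in replicates 1 to 4, and Hbb-bs, a beta globin gene, 27, 42, 43 and 131 counts. Replicate 4 was highest for both. Hba-a1 and Hba-a2 are near-identical, and how reads were divided between them is uncertain: Hba-a1 was listed at 0 TPM in replicates 1 to 3 and at 60.9 TPM in replicate 4. Alas2, the erythroid enzyme that starts haem synthesis, had at most 2.13 TPM. Ermap was listed at 0 TPM.

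Platelet integrin genes were at high levels. Itga2b (chromosome 11, 102453297 to 102470122, minus strand), the alpha chain of the fibrinogen receptor CD41, was at 285, 224, 351 and 426 TPM. Itgb3, its beta chain CD61, was at 157, 143, 204 and 271 TPM. Both were highest in replicate 4 and lowest in replicate 2. Gfi1b, a repressor needed for red cells and platelets, was at 64.1, 69.9, 134 and 127 TPM, and Fli1, a megakaryocyte ETS factor, was even at 43.7 to 48.1 TPM. The platelet glycoprotein gene Gp9 reached 6.17 to 11.6 TPM and Gp1ba 6.70 to 19.1 TPM. Products of mature platelets were absent or nearly so: Ppbp, Vwf, Gp6 and Gp1bb were listed at 0 TPM, and Pf4 had 2.22 TPM in replicate 2 and 0 TPM in the rest.

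**Figure D1:**
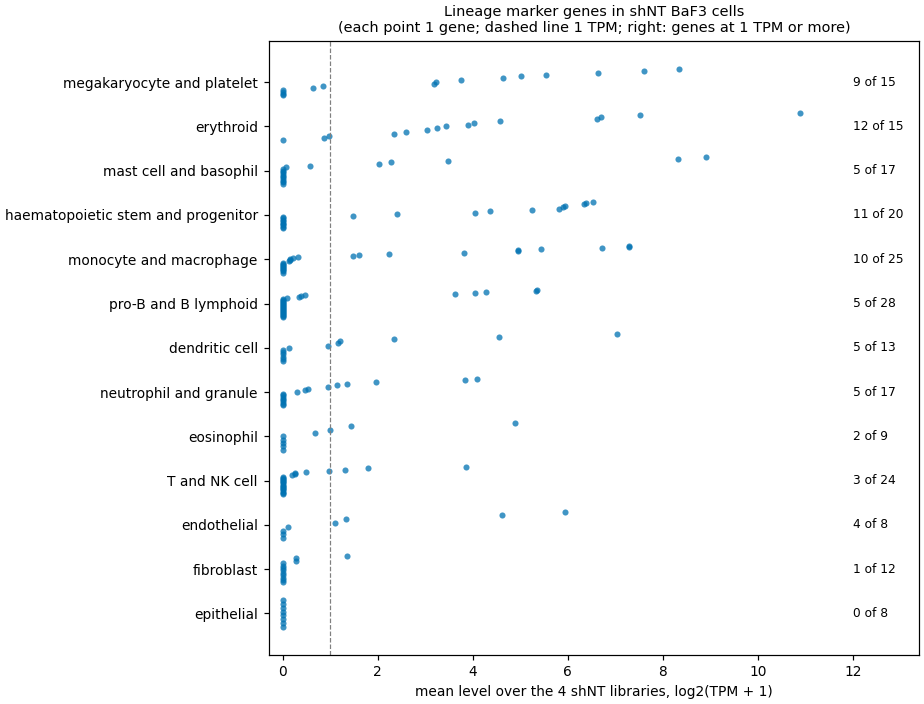
Mean level of each marker gene over the 4 shNT libraries, as log2(TPM + 1), with 1 row per lineage list and 1 point per gene. The dashed line marks 1 TPM, and the right-hand text counts the genes at or above it, from 12 of 15 erythroid markers to 0 of 8 epithelial markers.

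Progenitor factors were split between high and absent members. Of 20 stem and progenitor markers, 11 had a mean of 1 TPM or more, with a summed level of 484, 437, 557 and 548 TPM. Lmo2, the bridging protein of the GATA and TAL1 complex, was at 86.1, 98.9, 113 and 65.3 TPM. Tal1, its DNA-binding partner, was at 69.8, 63.9, 100 and 97.3 TPM, and Runx1 at 72.9, 37.5, 68.8 and 140 TPM. Myb ran from 37.5 to 87.0 TPM. By contrast Cd34, the receptor gene Kit, Hoxa9, Meis1, Mecom, Hlf and Erg were listed at 0 TPM in all 4 libraries and are not in the count table.

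Of 17 mast cell and basophil markers 5 were detected, led by Gata2 and Srgn. Gata2 (chromosome 6, 88193891 to 88207032, plus strand) was at 470, 426, 462 and 557 TPM, the highest level of the 40 blood lineage transcription factors, and ranked 270 among all genes. Srgn, the core protein of secretory granules in many blood cells, was at 422, 276, 234 and 333 TPM. The genes that define the mast cell were near or at 0. Kit, the IgE receptor genes Fcer1a and Ms4a2, and the proteases Cma1, Mcpt4, Tpsab1, Tpsb2 and Mcpt8 were all listed at 0 TPM, with at most 6 counts for Cma1, and the carboxypeptidase Cpa3 had at most 8.44 TPM.

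Some myeloid genes were present while others that define macrophages were near or at 0. Among 25 monocyte and macrophage markers, 10 had a mean of 1 TPM or more, and the list summed to 557, 396, 588 and 609 TPM. Fcgr3, an IgG receptor, was at 160, 138, 153 and 174 TPM, and Fcer1g, the signalling chain shared by Fc receptors, at 138, 135, 240 and 103 TPM. Cebpb was at 86.8, 50.4, 106 and 171 TPM and Spi1 at 59.5, 26.5, 31.1 and 51.0 TPM. Adgre1, which encodes the F4/80 antigen, was at 48.2, 13.5, 12.1 and 45.3 TPM, with replicates 1 and 4 above the other two. Csf1r, the receptor that defines macrophages, did not exceed 0.37 TPM, and Cd14, Mrc1, C1qa, C1qb and C1qc were listed at 0 TPM.

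Other blood lineages were represented by a few genes. Of 17 neutrophil markers 5 reached a mean of 1 TPM, led by Cebpe at 7.73 to 24.6 TPM and Prtn3, a granule protease, at 8.08 to 20.2 TPM, while Elane, Camp, Csf3r and Cebpa were at 0 TPM. Of 9 eosinophil markers 2 did, with Siglecf at 15 to 51.5 TPM. Of 13 dendritic cell markers 5 did, with Bst2 at 103 to 144 TPM and the defining receptor gene Flt3 at 0 TPM. Of 24 T and NK cell markers 3 did, the highest being Nkg7 at 8.6 to 16.2 TPM, and Cd3d, Cd4, Cd8a and Gata3 were at 0 TPM. The summed levels ran from 29.2 to 46.9 TPM for the neutrophil list, 20.1 to 51.5 TPM for the eosinophil list, 129 to 190 TPM for the dendritic cell list and 10.9 to 25.3 TPM for the T and NK cell list.

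The T cell receptor gamma locus was an exception among lymphoid genes. It was added as a list of 9 genes after its values were seen, and it summed to 526, 332, 429 and 467 TPM. Tcrg-C4, a constant region gene, had 4728, 3241, 4107 and 4512 counts, Tcrg-C2 had 3880, 3679, 4556 and 2677 counts, and Tcrg-C1 had 2701, 2282, 2539 and 1328 counts. The 2 variable genes in the list, Tcrg-V1 and Tcrg-V7, stayed under 10 TPM. The joining genes Trgj1, Trgj2 and Trgj4 were listed at 0 TPM but had 60 to 287 counts. The constant genes are close copies of each other, so the division of reads between them is uncertain.

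Epithelial and fibroblast markers were close to absent, and endothelial markers were mixed. None of 8 epithelial markers had any TPM, and the 12 fibroblast markers summed to at most 4.68 TPM with Col1a1, Col1a2 and Pdgfra at 0 TPM. Of 8 endothelial markers 4 reached 1 TPM, led by Pecam1, the CD31 adhesion protein also carried by platelets and white cells, at 60.8, 42.6, 63.1 and 76.7 TPM. Tie1, an endothelial receptor kinase, was at 18.6 to 33.9 TPM, and Cdh5 and Kdr, which define endothelium, were at 0 TPM.

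Among 30 cytokine receptor genes, 18 had a mean of 1 TPM or more, and the chains for interleukin-3 followed Epor. Csf2rb (chromosome 15, 78325752 to 78353847, plus strand), the signalling chain shared by the receptors for interleukin-3, interleukin-5 and GM-CSF, was at 492, 170, 143 and 229 TPM. Csf2rb2, its interleukin-3-specific copy in the mouse, was at 348, 129, 112 and 156 TPM. Both were highest in replicate 1. The pair are close in sequence, and the scaled counts keep this order of libraries (1794, 686, 555 and 1049 CPM for Csf2rb, where CPM is counts scaled to library size). Il3ra, the ligand-binding chain, was at 46.1, 23.8, 32.1 and 42.4 TPM. Il2rg, the common gamma chain, was at 43.5 to 89.5 TPM and lowest in replicate 4. Il7r, Il6st, Kit and Flt3 were listed at 0 TPM.

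Il3, Csf2, Epo and Thpo, which encode ligands of growth factor receptors of blood cells, were listed at 0 TPM in all 4 libraries. Other receptors had a ligand transcript: Tnf, the ligand of Tnfrsf1a, was at 4.09 to 11.1 TPM, and Il4, the ligand of Il4ra, was listed in replicate 1 alone, at 1.56 TPM. Of 29 cytokine and chemokine genes 10 had a mean of 1 TPM or more. Tgfb1 was by far the highest, at 378, 270, 390 and 208 TPM, followed by the chemokine receptor gene Cxcr4 at 27.7 to 59.7 TPM, Il6 at 22.9 to 43.2 TPM and Osm, a STAT5 target that encodes oncostatin M, at 13.1 to 24.4 TPM.

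Jak2 and its pathway were expressed almost completely. Of 21 JAK and STAT pathway genes 20 had a mean of 1 TPM or more, Stat4 being listed at 0 TPM, and the sum was 1041, 1058, 1236 and 941 TPM. Jak2 (chromosome 19, 29251828 to 29313080, plus strand) was at 340, 371, 308 and 208 TPM, a mean of 307 ± 70.9 TPM (SD, n = 4) that ranked 417. Jak1 was steady at 57.7 to 67.9 TPM, Jak3 at 29.7 to 41.0 TPM and Tyk2 at 11.7 to 20.4 TPM. Stat5a was at 15.7, 19.9, 19.6 and 17.8 TPM and Stat5b at 21.7, 18.4, 20.9 and 27.5 TPM, each within a narrow range. Stat3 was at 61.5, 60.1, 70.9 and 122 TPM, highest in replicate 4.

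The Jak2 transcripts in replicate 4 differed from the rest. Jak2-201 held 92.7, 97.7 and 96.1% of the gene's TPM in replicates 1 to 3 and 41.4% in replicate 4, where Jak2-202, also protein coding, held 58.6%. The gene's counts in replicate 4, 23504, were well above the range where TPM zeros were common. Shares of transcripts rest on an estimate from reads that the transcripts share.

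**Figure D2:**
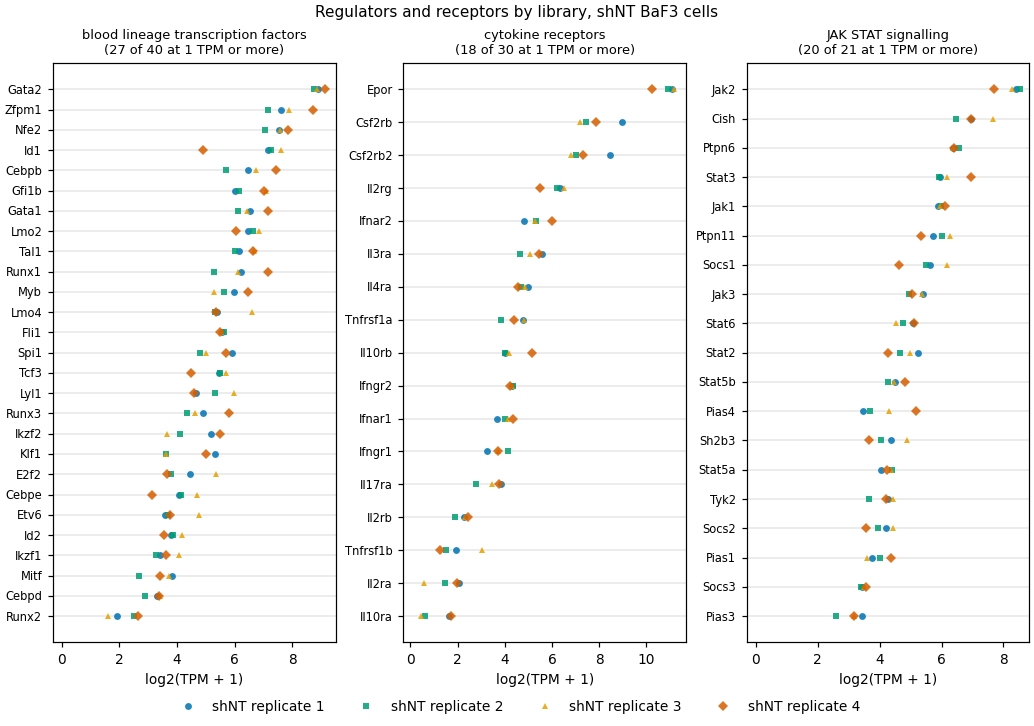
Level of detected blood lineage transcription factor, cytokine receptor and JAK STAT pathway genes in the 4 libraries, as log2(TPM + 1), ordered by mean level with 1 symbol per library. Gata2, Epor and Jak2 head the 3 panels, and replicate 4 lies apart for Id1 (29.0 TPM against 141 to 191 TPM).

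The known targets of STAT5 were mostly high. Of 17 such genes 14 had a mean of 1 TPM or more, with sums of 1536, 1334, 2071 and 1182 TPM. Pim1, a survival kinase, was at 291, 241, 350 and 354 TPM, Myc at 191, 173, 200 and 121 TPM, and Ccnd3, a D-type cyclin, at 299, 179, 233 and 213 TPM. Cish, a feedback inhibitor of cytokine receptors, was at 122, 86.8, 203 and 123 TPM. Pim2 varied most among them, at 71.2, 161, 304 and 42.5 TPM, highest in replicate 3 and lowest in replicate 4. Id1, an inhibitor of bHLH factors, was at 141, 153, 191 and 29.0 TPM. Ccnd1 and Pim3 stayed under 1 TPM, and Bcl6 was listed at 0 TPM.

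The RAS and ERK pathway was the steadiest list. All 22 genes had a mean of 10 TPM or more, and the sum was 1087, 1066, 1140 and 1053 TPM, a coefficient of variation of 3.52%. A single member could vary within it: Gab2, an adaptor protein, was at 33.0, 16.6, 32.6 and 83.0 TPM. Of 19 genes that ERK induces, 14 were detected. Dusp4 was at 66.0 to 101 TPM and Junb at 66.5 to 76.7 TPM. Dusp6, the ERK phosphatase, was at 53.2, 41.6, 69.7 and 13.9 TPM, Spred2 at 24.5, 24.3, 31.0 and 7.33 TPM, and Etv5 at 14.1, 16.5, 20.4 and 1.03 TPM, all 3 lowest in replicate 4. The list did not follow them as a whole, and Dusp4 was highest in replicate 4. Of the 14 detected genes, 6 (42.9%) were lowest and 4 (28.6%) highest in replicate 4, against 43.9% and 24.7% of all detected genes. Egr1 and Spry1 were listed at 0 TPM. As 18 of the 19 genes are in the count table, at least 1 of this pair has an entry there.

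Survival and death genes of the BCL2 family were both present, 11 of 18 at a mean of 1 TPM or more. Among protectors, Mcl1 was at 140, 95.8, 124 and 138 TPM, Bcl2l1 at 90.6, 85.7, 196 and 49.0 TPM and Bcl2 at 101, 56.9, 85.4 and 59.1 TPM. Among effectors, Bax was at 259, 179, 274 and 358 TPM and Bak1 at 85.6, 96.5, 112 and 52.5 TPM. Bcl2l11, which encodes the death activator BIM, was at 9.42, 12.1, 16.1 and 132 TPM, and its counts of 1597, 1381, 1730 and 7535 keep replicate 4 apart. Bbc3, which encodes PUMA, was at 55.3, 36.9, 90.8 and 203 TPM. Replicate 4 thus had the lowest Bcl2l1 together with the highest Bcl2l11, Bbc3 and Bax. Other members went the other way there: Bak1 and the death gene Bad (31.3 TPM) were lowest, and the protector Bcl2l2 (23.8 TPM) was highest. Of the 11 detected genes, 6 (54.5%) were highest and 3 (27.3%) lowest in replicate 4, against 24.7% and 43.9% of all detected genes.

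Genes for protein synthesis dominated the RNA. The 100 genes with the highest mean held 35.9, 34.8, 31.9 and 43.4% of all TPM in replicates 1 to 4, a mean of 36.5 ± 4.90% (SD, n = 4), and 53 of the 100 were ribosomal protein genes. All 82 genes of the ribosomal protein list, which was set by gene symbol and takes in Rpl7l1 and Rps27l, were detected. Their mean sum was 225044 ± 18275 TPM (SD, n = 4). Eef1a1, the elongation factor that delivers tRNA, headed all protein coding genes other than those for ribosomal proteins, at 14974, 13088, 15989 and 18858 TPM. Eef1b2, its exchange factor, was at 3508 to 4122 TPM, and Npm1, the nucleolar protein nucleophosmin, at 3146 to 3984 TPM. Hsp90ab1, a chaperone, was at 2928, 3109, 3367 and 2888 TPM and Rack1, a ribosome-bound scaffold, at 2767 to 3540 TPM. The peptidyl-prolyl isomerase gene Ppia and the prothymosin gene Ptma were lowest in replicate 4, at 1702 and 1558 TPM against at least 3293 and 3042 TPM elsewhere.

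Levels of ribosomal protein and mitochondrial genes may depend on how reads from near-identical copies were assigned. Transcripts annotated as processed pseudogenes held 10.6 ± 0.564% of TPM (SD, n = 4), and genes of that type held 0.515% of the counts. These shares are unlike measures. The first is per transcript length over all transcripts, and the second is of raw counts over the 13588 genes of the count table. The clearest case is Gm10076, an unspliced noncoding gene at 1099 to 1567 TPM that had 2.29 to 3.74 CPM in the count table. Of the noncoding genes that follow it, the small RNA host gene Snhg3 was at 343 to 655 TPM, AI662270 at 250 to 452 TPM, the mitochondrial ribosomal RNA mt-Rnr2 at 217 to 442 TPM and 2410006H16Rik at 277 to 476 TPM. mt-Co3 was at 761, 763, 1013 and 5.66 TPM but had 275, 204, 102 and 109 counts, so the low value of replicate 4 appears in the TPM table and not in the counts.

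Mitochondrial and nuclear genes of respiration did not share an order of libraries. The 13 mRNAs of the mitochondrial genome summed to 43484, 29415, 18420 and 35639 TPM, lowest in replicate 3. Of these 13 genes, 5 are not in the count table, so their TPM could not be set beside counts, while all 30 nuclear genes are in it. mt-Co1, a subunit of cytochrome oxidase, was at 11079, 5956, 3051 and 13942 TPM, and mt-Cytb, of complex III, at 3153, 2385, 1769 and 917 TPM. The 30 nuclear genes of oxidative phosphorylation summed to 10423, 11090, 11267 and 6947 TPM, and 26 of the 30 (86.7%) were lowest in replicate 4, as were 43.9% of the 12415 detected genes on TPM. Atp5b, a subunit of ATP synthase, was at 937, 925, 1283 and 658 TPM, and Cycs, cytochrome c, at 40.8, 56.7, 92.9 and 11 TPM.

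Glycolysis ran the other way. Its list of 21 genes summed to 15783, 12175, 12295 and 21583 TPM, and 13 of its 18 detected members (72.2%) were highest in replicate 4, as were 24.7% of all detected genes on TPM. Aldoa, aldolase A, was at 2722, 1712, 1932 and 5848 TPM and Gapdh at 2279, 1619, 1798 and 3053 TPM. Ldha, lactate dehydrogenase A, was more even at 1580 to 2011 TPM. The genes that hypoxia induces followed: their list of 21 summed to 2785, 2075, 1530 and 4624 TPM, and 15 of 17 detected members (88.2%) were highest in replicate 4, against the same 24.7% of all detected genes. Ero1l, an oxidase of the endoplasmic reticulum, was at 454, 315, 147 and 995 TPM, Bnip3l, a receptor for removal of mitochondria, at 341, 272, 278 and 646 TPM, and Ndrg1 at 108, 78.9, 42.3 and 343 TPM. Hif1a itself was at 23.4 to 33.0 TPM.

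Replication genes were lowest in replicate 4. All 33 cell cycle and replication genes had a mean of 10 TPM or more, and the list summed to 3320, 3676, 4434 and 1424 TPM. In replicate 4, 29 of the 33 (87.9%) were lowest, against 43.9% of all detected genes. Pcna, the sliding clamp, was at 306, 406, 517 and 88.6 TPM, Mcm6, a subunit of the replicative helicase, at 213, 231, 330 and 64.5 TPM, and Rrm2, of ribonucleotide reductase, at 146, 170, 209 and 27.2 TPM. Top2a was at 285, 326, 403 and 146 TPM. The inhibitor genes of the list were split: Cdkn1b was highest in replicate 4, at 62.8 TPM against 19.9 to 35.8 TPM. Cdkn2c was lowest in it, at 14.8 TPM against 15.7 to 33.0 TPM. Replicates 1 to 3 kept closer together, and replicate 3 had the highest sum.

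The p53 list showed the opposite order in replicate 4. Of 18 genes 17 were detected, with sums of 1657, 969, 1307 and 2170 TPM, and 12 of the 17 (70.6%) were highest in replicate 4, against 24.7% of all detected genes. Cdkn1a, which encodes the cell cycle inhibitor p21, was at 421, 200, 249 and 595 TPM, Mdm2 at 83.3, 58.2, 60.4 and 139 TPM and Trp53inp1 at 35.0, 11.2, 9.84 and 91.9 TPM. Trp53 itself was lowest in replicate 4, at 108 TPM against 160 to 209 TPM.

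Stress and lipid genes were broadly expressed. Of 30 genes of the unfolded protein and integrated stress responses 28 were detected, with sums from 5787 to 7458 TPM. Calr, the chaperone calreticulin, was at 727 to 1059 TPM and Hspa5, the chaperone BiP, at 677, 779, 392 and 494 TPM. Ddit3, the factor CHOP, was at 72.6, 44.6, 238 and 291 TPM and Trib3 at 55.5, 46.3, 197 and 126 TPM, both with replicates 3 and 4 above the other two. Most of the list was not high in replicate 4. Of its 28 detected genes, 4 (14.3%) were highest and 12 (42.9%) lowest there, against 24.7% and 43.9% of all detected genes. Of 14 heat shock genes 11 were detected, and the sum varied by 8.10%. Of 25 genes of cholesterol synthesis and uptake 24 were detected, with sums of 2705, 2358, 2119 and 1684 TPM, and 16 of the 24 (66.7%) were lowest in replicate 4, against 43.9% of all detected genes.

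Histone mRNAs were low. Replication-dependent histone mRNAs, which lack such tails, summed to 53.4, 54.6, 24.4 and 29.7 TPM over 20 genes, of which 7 had a mean of 1 TPM or more. The list of 14 small structured and host RNAs summed to 1853, 2207, 1709 and 1975 TPM, 11 of them detected. Within it Malat1, a nuclear RNA, was at 61.9, 47.6, 59.3 and 199 TPM and Neat1, of paraspeckles, at 229, 65.0, 62.4 and 194 TPM.

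**Figure D3:**
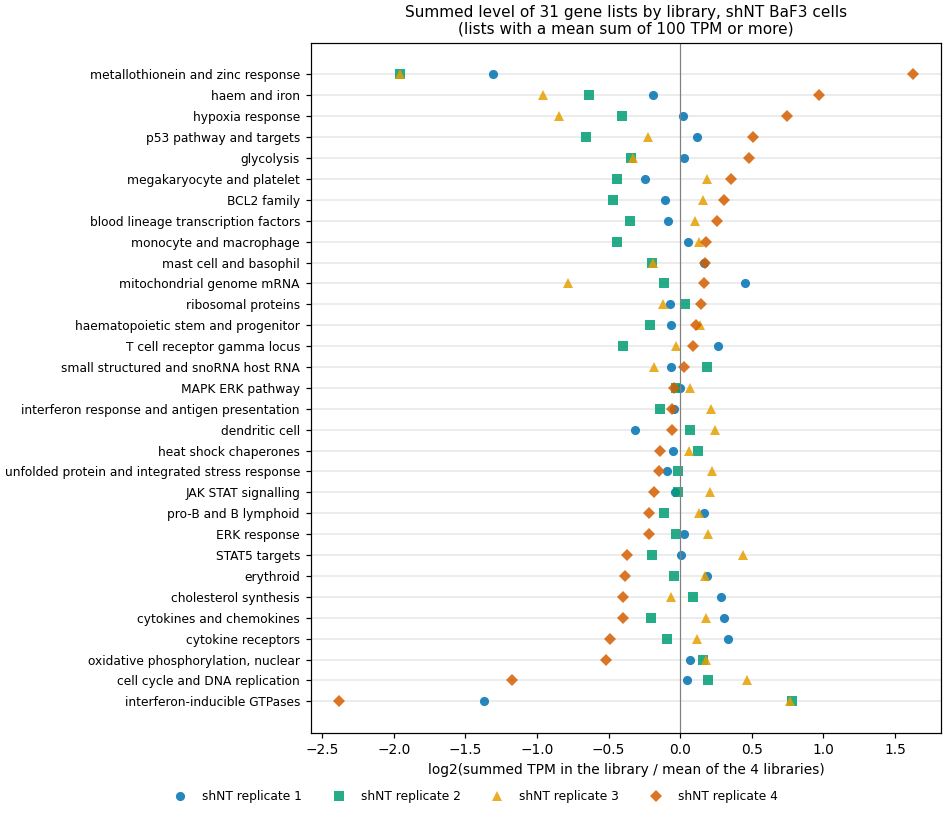
Summed TPM of 31 gene lists in each library, as the log2 ratio to the mean of the 4 libraries, ordered by replicate 4. Metallothionein genes head the lists that were high in replicate 4 (23719 TPM against 1979 to 3106 TPM), and cell cycle genes and interferon-inducible GTPases were low in it.

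Variation between the libraries was measured on counts scaled to library size by TMM (a scaling that trims extreme genes), as CPM. Over 12071 genes the biological coefficient of variation, the spread left after counting error, was 0.308, and it was 0.20 without replicate 4. Among 8700 genes with a mean of 10 CPM or more, the median SD of log2(CPM + 1) was 0.29 over the 4 libraries and 0.17 over replicates 1 to 3. Counting error alone gives an SD of 0.09 at 10 CPM in the shallowest library. On CPM + 1, 2180 of the 8700 genes (25.1%) differed at least 2-fold between their highest and lowest library, 253 (2.91%) at least 4-fold and 36 at least 8-fold. Without replicate 4, 292 of 8735 genes (3.34%) reached 2-fold, 27 reached 4-fold and 8 reached 8-fold. Without any 1 of the others, 1788 to 2129 genes reached 2-fold, 167 to 248 reached 4-fold and 22 to 38 reached 8-fold. A range over 3 libraries can only be the same or narrower for a given gene and scaling.

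Replicate 4 was an extreme library for most genes. On CPM it was the highest library for 38.5% and the lowest for 44.0% of the 8700 genes. Among the 253 genes that varied 4-fold it was highest for 147 and lowest for 99. Replicate 3 was highest for 63 and lowest for 104, replicate 2 highest for 39 and lowest for 47, and replicate 1 highest for 4 and lowest for 3. In 133 of the 253 genes replicates 1 and 4 both exceeded replicates 2 and 3, and in 89 both lay under them. The same splits were found in 25.3% and 32.2% of the 8700 genes. A principal component analysis put 82.2% of the variance on its first axis, with replicate 4 at 49.9, replicate 1 at -1.67, replicate 2 at -23.6 and replicate 3 at -24.6. Without replicate 4 the first axis held 67.5%, and without any 1 of the others 86.3 to 90.4%. Across the 8700 genes, which are not independent, Pearson's r of log2(CPM + 1) was highest between replicates 2 and 3 (0.978) and lowest between replicates 3 and 4 (0.858). The order on the first axis is the order of depth, from replicate 4, the shallowest library, through replicates 1 and 2 to replicate 3, the deepest. The part of depth in these differences was not tested.

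**Figure D4:**
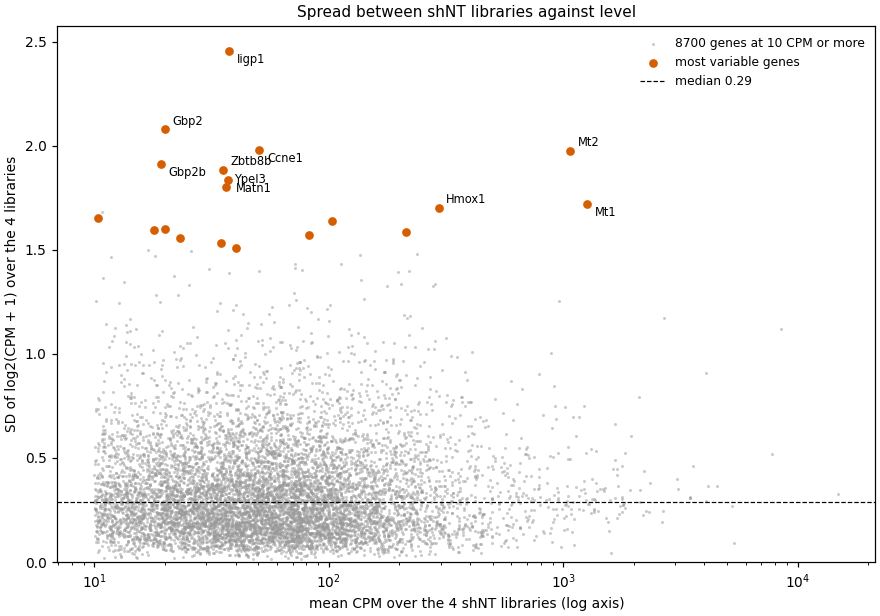
SD of log2(CPM + 1) over the 4 shNT libraries against mean CPM (log axis) for 8700 genes, with the most variable in orange and the median of 0.29 dashed. Iigp1 stands highest at 2.46, and Mt2 and Mt1 combine a wide spread (1.98 and 1.72) with a mean above 1000 CPM.

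Metallothioneins were the most variable of the abundant genes. Mt2 (chromosome 8, 94172664 to 94173568, plus strand, GRCm38) and Mt1 (chromosome 8, 94179082 to 94180327, plus strand) encode small cysteine-rich proteins that bind zinc and copper. Mt2 had 357, 228, 172 and 3506 CPM in replicates 1 to 4 and Mt1 had 505, 339, 302 and 3899 CPM. Replicate 4 was far above the rest for both, and the ratio of highest to lowest on CPM + 1 was 20.2 for Mt2 and 12.9 for Mt1. The SD of log2(CPM + 1) was 1.98 for Mt2 and 1.72 for Mt1 with replicate 4, and 0.53 and 0.39 over replicates 1 to 3. The zinc exporter gene Slc30a1 (chromosome 1, 191906767 to 191913247, plus strand), another known target of the zinc sensor MTF1, had 31.2, 26.3, 34.3 and 216 CPM, again with replicate 4 apart. Mtf1 itself was at 21.4, 29.0, 27.4 and 15 TPM, lowest in replicate 4. The zinc importer gene Slc39a10 was at 6.88 to 15.3 TPM and Slc30a5 at 16.1 to 37.5 TPM. The list of 8 metallothionein and zinc genes thus summed to 3106, 1980, 1979 and 23719 TPM.

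The start regions of these 3 genes are shown because they were highest together in replicate 4 and are known targets of the same zinc-sensing factor. Each sequence runs from 250 bases before to 50 bases after the RefSeq gene start, with the core letters of the metal response element, TGCACNC or TGCGCNC on either strand, in capitals. The sequences come from RefSeq, on GRCm38.p6, at chr8:94172368-94172667 for Mt2, chr8:94178839-94179138 for Mt1 and chr1:191906531-191906830 for Slc30a1, all on the plus strand.
Mt2: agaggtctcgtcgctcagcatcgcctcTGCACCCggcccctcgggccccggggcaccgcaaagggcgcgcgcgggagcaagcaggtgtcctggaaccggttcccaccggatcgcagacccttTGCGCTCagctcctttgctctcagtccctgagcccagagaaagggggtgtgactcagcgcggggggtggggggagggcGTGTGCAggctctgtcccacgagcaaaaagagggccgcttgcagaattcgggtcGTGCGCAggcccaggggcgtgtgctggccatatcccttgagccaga
Mt1: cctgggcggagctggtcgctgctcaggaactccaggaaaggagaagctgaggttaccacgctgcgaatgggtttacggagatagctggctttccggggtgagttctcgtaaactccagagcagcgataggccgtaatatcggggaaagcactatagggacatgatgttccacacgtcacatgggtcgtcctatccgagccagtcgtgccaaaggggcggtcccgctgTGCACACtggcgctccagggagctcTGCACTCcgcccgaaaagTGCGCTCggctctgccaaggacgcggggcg
Slc30a1: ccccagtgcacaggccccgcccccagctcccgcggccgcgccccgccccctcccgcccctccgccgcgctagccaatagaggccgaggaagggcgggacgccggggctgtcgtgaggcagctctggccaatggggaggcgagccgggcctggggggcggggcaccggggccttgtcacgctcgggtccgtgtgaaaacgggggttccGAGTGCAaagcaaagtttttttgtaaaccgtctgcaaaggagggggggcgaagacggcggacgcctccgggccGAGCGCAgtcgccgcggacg
The windows hold 4, 3 and 2 matches for Mt2, Mt1 and Slc30a1. No match in them overlaps another. Of 32851 start regions of the same length, 25.7% hold at least 1 match, 7.11% at least 2, 1.97% at least 3 and 0.517% at least 4. A match is a run of letters and does not show that the factor binds there.

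Some genes of haem and iron were highest in the same library. Hmox1 (chromosome 8, 75093621 to 75100589, plus strand), the enzyme that breaks down haem, had 163, 88.6, 58.0 and 866 CPM. Ftl1, the ferritin light chain, was at 4253, 2816, 2071 and 11146 TPM and Fth1, the heavy chain, at 2738, 2169, 1868 and 5139 TPM. Slc48a1, a haem transporter, was at 56.8, 36.5, 29.2 and 213 TPM. All 4, which were picked for their values, were highest in replicate 4 and lowest in replicate 3. The list did not follow them as a whole. Of its 22 genes, added after their values were seen, 20 were detected, and 7 of these (35.0%) were highest and 9 (45.0%) lowest in replicate 4, against 24.7% and 43.9% of all detected genes. The haem synthesis gene Alad was among the lowest, at 27.6 TPM against 63.8 to 83.4 TPM.

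Several interferon-inducible GTPases were higher in replicates 2 and 3 than in replicates 1 and 4. Iigp1, an immunity-related GTPase, had 4.86, 62.6, 81.3 and 1.74 CPM and the widest spread of the 8700 genes, with a ratio of 30.0 on CPM + 1. Gbp2 (chromosome 3, 142620602 to 142638008, plus strand), a guanylate-binding protein, had 2.78, 35.6, 40.0 and 1.74 CPM, Gbp2b 3.58, 33.6, 37.8 and 2.08 CPM, and Tgtp2 15.2, 72, 65.0 and 7.82 CPM. These 4 are named because they are among the most variable genes. The list of 18 such genes, also added after values were seen, had a sum of 82.7, 367, 364 and 41.1 TPM. Some of these genes are close copies, Tgtp1 and Tgtp2 among them, and reads may be divided between them.

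The sum of the wider interferon and antigen presentation list was more even. Of its 28 genes 25 were detected, and the sum was 4443, 4152, 5327 and 4414 TPM. B2m, the invariant chain of class I molecules, was at 1128, 1129, 1552 and 1636 TPM. Irf1 was at 33.3, 47.0, 73.9 and 23.9 TPM and Isg15 at 3.15, 12.7, 15.3 and 0 TPM, both highest in replicate 3 and lowest in replicate 4. The receptor genes Ifngr1, Ifngr2, Ifnar1 and Ifnar2 were all detected, at 8.56 to 63.7 TPM.

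**Figure D5:**
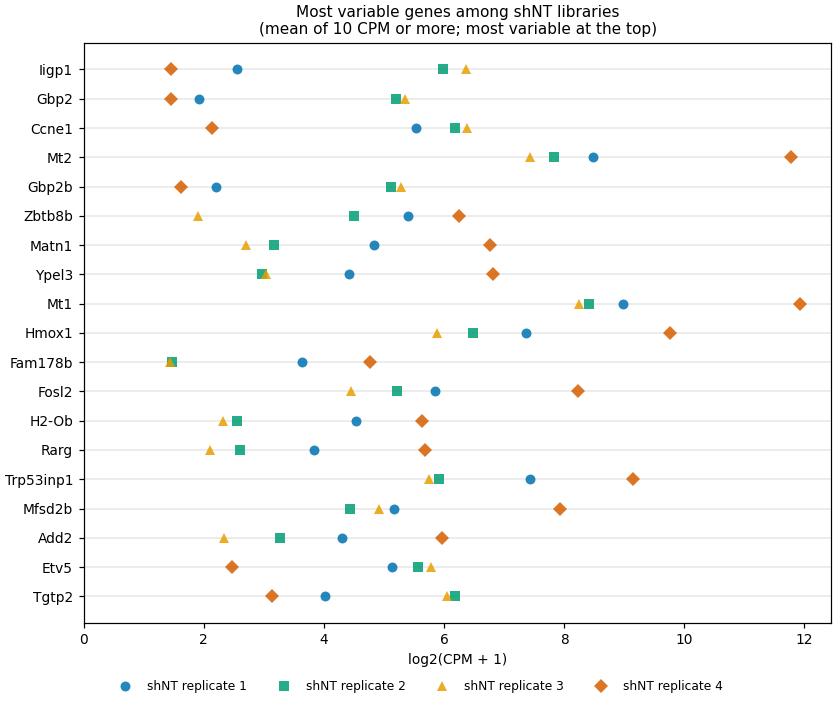
Genes with the largest SD of log2(CPM + 1) among those with a mean of 10 CPM or more, shown per library with the most variable at the top. Replicate 4 is the highest library for most of them, as for Mt2 (3506 CPM), and the GTPases Iigp1, Gbp2, Gbp2b and Tgtp2 have replicates 2 and 3 above replicates 1 and 4.

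The other genes among the 20 most variable were mostly highest or lowest in replicate 4. Ccne1 (chromosome 7, 38097984 to 38107534, minus strand), the cyclin that drives entry into S phase, had 45.3, 71.3, 82.4 and 3.40 CPM. Etv5, the ERK-induced factor, had 34.2, 46.4, 53.8 and 4.55 CPM. Fosl2, an AP-1 subunit, had 56.5, 36.2, 20.8 and 301 CPM and Trp53inp1, a p53 target, 171, 59.2, 52.6 and 568 CPM. Ypel3 had 20.5, 6.80, 7.23 and 112 CPM, and Matn1, a matrix protein of cartilage, 27.7, 8.01, 5.54 and 107 CPM. Mfsd2b, a sphingosine-1-phosphate exporter of red cells and platelets, had 35.0, 20.6, 29.4 and 243 CPM, and Add2, an adducin subunit of the red cell skeleton, 18.7, 8.6, 4.03 and 61.5 CPM. The retinoic acid receptor gene Rarg had 3.28 to 50.4 CPM, H2-Ob of class II processing 3.98 to 48.7 CPM, Fam178b 1.72 to 26.3 CPM and Zbtb8b 2.72 to 75.2 CPM, each highest in replicate 4.

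A few genes varied among replicates 1 to 3 alone. Serpinb1a, an inhibitor of granule proteases, had 466, 78.4, 61.1 and 204 CPM, highest in replicate 1. Extl1 had 13.5, 4.66, 56.2 and 12.8 CPM and the stress protein gene Nupr1 6.78, 3.83, 25.2 and 10.2 CPM, both highest in replicate 3.

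The least variable genes with a mean of 100 CPM or more showed how even the scaled counts could be. Sumo3, a ubiquitin-like modifier, had 187, 194, 190 and 188 CPM, an SD of log2(CPM + 1) of 0.02. Ppp6c, a phosphatase subunit, had 107 to 112 CPM, Vps4b, of membrane scission, 159 to 166 CPM and Ralb, a small GTPase, 109 to 115 CPM. In all, 637 of 8700 genes (7.32%) had an SD under 0.1, and 2043 of 8735 (23.4%) did without replicate 4. Without any 1 of the others the number was 840 to 923.

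Transcript use was described for 5078 genes with a mean of 20 TPM or more and several transcripts. The transcript with the highest mean held a median of 63.2% of its gene's TPM. It held 90% or more in 906 genes and less than 50% in 1576. Across the 4 libraries its share ranged over a median of 24.3 percentage points, and over 50 points or more in 711 genes. Without replicate 4 these values were 16.7 points and 335 genes, and without any 1 of the others 19.1 to 19.9 points and 491 to 549 genes. In 185 genes this transcript was annotated as a retained intron.

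Genes differed widely in how stable these shares were. Ybx1-201 held 73.2, 76.6, 81.9 and 86.0% of Ybx1, an RNA-binding protein with a cold shock domain, whose level was 1532, 1321, 1406 and 1104 TPM. Gata2-202 and Gata2-203 held 48.7 to 53.6% and 41.2 to 43.1% of Gata2. Bcl2l11-205 held 92.8% of Bcl2l11 in replicate 1 and 17.8% in replicate 4, where Bcl2l11-204 led with 35.5%. The 6 widest ranges were all 100 points. Hemgn, a nuclear protein of blood progenitors, had 66.1, 100, 60.1 and 0% of its TPM in Hemgn-202, and Tmem126a, a factor in complex I assembly, 0, 81.9, 100 and 0% in Tmem126a-201. Gmfg, Eno3, BC028528 and Gm11175 were the other four. Such ranges occurred in genes of moderate level, with means of 20.2 to 36.3 TPM for these 6.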

How the data were processed

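Expression was measured in 4 shNT libraries, placed in their group by the sample titles. Raw counts, whole numbers that were not normalized, stand in a gene table the authors deposited. TPM values come from 2 further deposited tables, for genes and for transcripts, whose identifier columns carry RSEM's names in the file headers. STAR, featureCounts, limma and RSEM are listed in the submitters' processing notes, with the builds GRCm38 and mm9 and no versions. The sources used here give no strand setting for the counting, and overlapping genes may share reads.

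Counts were scaled by TMM in edgeR 4.0.16 (R 4.3.3) on the 4 libraries alone, with factors of 1.04, 1.03, 1.04 and 0.902, and given as CPM. Spread was the SD of log2(CPM + 1) and edgeR's common dispersion after its filter on low counts, with no contrast. The dispersion step was tested on simulated data. Levels of genes were compared as TPM. Precision is limited by 26093847 to 37549926 total counts per library. Symbols came from a gene table (53274 of 53465 IDs matched), coordinates and types from GENCODE M21 on GRCm38, and sequences from RefSeq.

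Genes named are the 15 highest protein coding and 5 highest noncoding, up to 5 per list and its defining markers, the 20 most variable, the 10 most variable in replicates 1 to 3, the 5 least variable and the 6 with the widest transcript range. Numbered genes and ribosomal proteins were left out of the highest 15. Further list members, such as Klf1, Cycs and Irf1, were chosen after their values were seen, and some genes that the rule selects are not reported here. The libraries, 35 gene lists and 3 added lists were chosen with earlier results of these data known. Alternatives were other scalings, pseudocounts and filters (DESeq2 1.42.0 size factors among them), and leaving out each library.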

Additional observations from a re-analysis of the deposited data

Results flagged for a closer look

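In each group of 4 values, a library was marked where its gap to the nearest other library exceeded the critical value of Dixon's ratio of gap to whole range, a limit that chance passes in about 5% of groups. Of 248 groups of values checked, 17 were marked, 16 of them for genes, and in 10 the marked library was replicate 4. At that rate 12.4 marks would arise by chance, which is most of the 17. In 5 of the marked groups 3 libraries were listed at 0, which fixes the mark, and other groups were genes named for their wide spread.

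Replicate 4 was far above the other 3 libraries for Mt2 (3506 CPM), Mt1 (3899 CPM), Hmox1 (866 CPM), Fosl2 (301 CPM), Mfsd2b (243 CPM) and Ypel3 (112 CPM), for the haem transporter gene Slc48a1 (213 TPM), and for the summed metallothionein and zinc list (23719 TPM). It was far below them for Hsp90aa1 (606 TPM). Tek, an endothelial receptor gene, was listed above 0 in replicate 4 alone, at 0.31 TPM.

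Replicate 1 was far above the rest for Ifitm1 (1165 TPM), and it alone listed Trac (1.65 TPM) and Tagln (0.83 TPM) above 0. Replicate 2 was far above the rest for the chaperonin gene Hspe1 (872 TPM) and just below them for Vps4b (159 CPM), a gene with very little spread. Replicate 3 alone listed S100a9 (4.86 TPM) and Prg3 (2.36 TPM) above 0. Single values at this level rest on few reads.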

How the results depend on the processing

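The biological coefficient of variation of 0.308 was 0.308 with DESeq2 size factors, 0.310 with library totals and 0.323 with no filter on low counts, and leaving out 1 library each gave 0.20 to 0.355. It was 0.20 without replicate 4. The 253 genes that varied 4-fold became 667 on TPM in place of CPM, where low values are coarse, 250 to 277 with other scalings or a pseudocount of 0.1, 359 with a lower filter, and 27 to 248 with 1 library left out. Without replicate 4 the number was 27, and without replicate 3 it was 167. The cause was not tested. Genes detected (12349 to 13549, or 9655 at 5 TPM and 10346 in every library), the share of the highest genes (34.5 to 39.2%), the median share of the leading transcript (62.4 to 64.4%) and the number of lists with at least 50% of members detected (21 to 24, main value 24) stayed within their spread or within 1.5 times of the main value. Leaving out 1 library moved the mean of some lists and genes by over 1.5 times. Of 37 list sums and 207 named genes with a mean of 1 TPM or more, 1 sum and 21 genes moved so without replicate 4, 1 sum and 10 genes without replicate 3, and 3 genes each without replicate 1 or 2. The metallothionein and zinc sum had a mean of 7696 TPM and of 2355 TPM without replicate 4, and the low fibroblast sum 1.98 TPM and 1.08 TPM without replicate 3. Fosl2 had a mean of 30.2 TPM and of 8.36 TPM without replicate 4. No paired analysis was possible because the values come from 1 group.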
